A study of Homo sapiens with 10 samples.

Results

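The genes of the cytosolic ribosomal proteins were followed through DDX41 knockdown in U2OS cells, a human osteosarcoma line. Members were the protein-coding genes outside chromosome Y whose GENCODE symbol begins with RPL, RPS, RPLP or RPSA and follows the numbering of the ribosomal proteins, without the RPS6K kinases. The rule uses symbols alone, and the family was picked for description with earlier results of these data known. There were 83 members among the 63299 genes of the count tables, of which 32705 had at least 1 count. They comprised 31 proteins of the small (40S) subunit, 43 of the large (60S) subunit, 3 of the P-stalk and 6 paralogs. RNA was taken 48 h after transfection with a control siRNA pool (siCtrl, 5 libraries) or a pool against DDX41 (siDDX41, 5 libraries), and no other genotype or agent is given in the labels. Polyadenylated RNA was sequenced as single reads from a stranded kit and counted per gene. The labels do not say whether replicates came from separate cultures, so p-values measure only the spread between these libraries. Knockdown with siRNA leaves part of the target, and a pool can act on other transcripts too.

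Between 21807041 and 24896398 reads were counted per library. Levels are CPM, counts scaled to the library size with TMM factors. The groups were compared by the quasi-likelihood test of edgeR, p-values were adjusted over all genes tested by the Benjamini-Hochberg method, and a gene was called higher or lower at an adjusted p-value under 0.01. DDX41 fell from 48.7 ± 1.42 to 12.2 ± 1.002 CPM (SD, n = 5), a log2 fold change of -1.99 ± 0.049 (SE). The exact two-sided permutation test gave p = 0.00794, the smallest that 5 against 5 libraries allow. The 6 mesenchymal markers, such as VIM and SPARC, had group means of 24.6 to 3177 CPM, with log2 fold changes from -0.74 for THY1 to 0.69 for COL5A1. THY1, RUNX2 (-0.40) and VIM (-0.087) were called lower, COL5A1 and SPARC (0.18) higher, and COL1A1 (-0.086) was not called. The epithelial markers EPCAM, CDH1, KRT5 and KRT14 had group means of 0.488 to 17.2 CPM, and KRT5 and KRT14 had log2 fold changes of -3.41 and -3.27. Among blood cell markers, CD3E had no read, CD14 had 1 to 6 reads per library, and PTPRC had 6 to 15 with a log2 fold change of 0.69 and was not called (edgeR adjusted p = 0.0228). The part of these markers in the results was not tested. In bulk RNA, a change in the cells present and a change in RNA per cell cannot be told apart.

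Among the control knockdown libraries, replicate 2 stood apart for these genes. It was the highest of the 5 control libraries for 48 of the 78 members tested, and replicate 3 was the lowest for 40. Over the 78 members, Spearman's rho between the deviation of a library from its group mean and transcript GC content varied between libraries. In control replicates 1 to 5 it was 0.0039, 0.49, -0.58, -0.65 and 0.58, and in DDX41 knockdown replicates 1 to 5 it was -0.033, 0.035, 0.026, -0.39 and 0.34. These values describe genes that share their libraries. Among DDX41 knockdown libraries, replicate 5 was the highest for 39 members and replicate 2 the lowest for 40.

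A cytosolic ribosome is built from a 40S subunit, which reads the mRNA, and a 60S subunit, which joins the amino acids, and each subunit is ribosomal RNA folded around a fixed set of proteins, most of them present once per ribosome. The mRNAs of nearly all these proteins begin with a cytosine followed by a run of pyrimidines, the terminal oligopyrimidine (TOP) motif, through which mTOR and LARP1 control their translation and stability. Many of the genes also carry small nucleolar RNAs in their introns, and many have processed pseudogenes elsewhere in the genome. Mutations that lower the dose of single members underlie Diamond-Blackfan anemia, and RPL5 and RPL11 outside the ribosome bind the ubiquitin ligase MDM2.

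Because the start of the transcript carries the TOP motif, the bases around the annotated starts of members with large changes or of the fixed lists are shown, from 10 bases before to 20 bases after the RefSeq start (GRCh38.p14, 5′ to 3′ on the gene's strand). The start bases are those of RefSeq and can differ from the gene bounds given below, which are those of GENCODE release 44 on GRCh38. The motif was read as C at the annotated start base followed by at least 4 bases of C or T. Of 66 members with an entry in the RefSeq promoter table, 43 (65.2%) began in this way, against 1104 of 27305 (4.04%) promoters in all and 458 of 9131 (5.02%) other genes with at least 1000 reads in the series. The first set holds members with the motif, with the pyrimidine run in capitals.
RPL38: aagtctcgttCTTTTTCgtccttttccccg
RPL35A: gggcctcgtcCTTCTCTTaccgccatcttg
RPL36: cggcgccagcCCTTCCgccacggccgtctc
RPL12: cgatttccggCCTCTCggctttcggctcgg
RPL14: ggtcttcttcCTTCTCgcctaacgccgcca
RPL13A: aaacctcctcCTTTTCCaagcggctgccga
RPLP0: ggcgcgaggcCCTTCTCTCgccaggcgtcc
RPLP1: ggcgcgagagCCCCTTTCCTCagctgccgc
RPL22: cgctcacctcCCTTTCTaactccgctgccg
RPL22L1: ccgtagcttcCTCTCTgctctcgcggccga
The next set holds members whose annotated RefSeq start did not meet the motif, namely 4 of the 6 with the largest falls (RPL19, RPL15, RPL4 and RPS27A) and the paralogs with the largest rises (RPL26L1 and RPL10L). No match says only that these letters are not at this annotated base.
RPL19: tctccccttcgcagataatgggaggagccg
RPL15: tggggcctgctggaggagcttcacgcagtc
RPL4: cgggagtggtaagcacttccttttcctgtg
RPS27A: agtgacacacaagacccagactcttcccta
RPL26L1: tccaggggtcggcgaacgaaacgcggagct
RPL10L: gtagttaagagagcgcattttgacttcgag
The windows lie at chr17:74203668-74203697 for RPL38, chr3:197950180-197950209 for RPL35A, chr19:5690285-5690314 for RPL36, chr9:127451387-127451416 for RPL12, chr3:40457329-40457358 for RPL14, chr19:49487598-49487627 for RPL13A, chr12:120201092-120201121 for RPLP0, chr15:69452808-69452837 for RPLP1, chr1:6199576-6199605 for RPL22 and chr3:170870176-170870205 for RPL22L1. Those of the second set lie at chr17:39200273-39200302 for RPL19, chr3:23916535-23916564 for RPL15, chr15:66504836-66504865 for RPL4, chr2:55231893-55231922 for RPS27A, chr5:172958719-172958748 for RPL26L1 and chr14:46651762-46651791 for RPL10L. The pyrimidine run, counted from the start base, was 11 bases long in RPLP1, 9 in RPLP0, 8 in RPL35A, 7 in RPL38 and 6 in RPL12. At the annotated base, the motif was met by some members that rose and some that fell. It was not met at that base by others of both kinds, and matches at nearby bases are not given.

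Not every member could be measured from these counts. RPS18 and RPS25 had no read in any library, which allows up to 3 reads of each library's total, RPL7A had 0 to 1 reads per library, and the muscle paralog RPL3L had 1 to 4. These genes were among the 5 members that did not pass the expression filter and were not tested. RPS9 (21 to 44 reads per library), RPS10 (103 to 170), RPL17 (155 to 218), RPL36A (272 to 345) and RPL39 (415 to 475) passed it with few reads. Ribosomes are built with these proteins, so a count of 0 is not evidence that the cells lacked the transcript. Every 31-base stretch of the exons of RPS9 and RPS18 also occurred on an alternate contig of hg38. So did 91.5% of those of RPL9 and 88.1% of those of RPL41, which had 12838 to 14445 and 3305 to 3979 reads per library, so this feature did not go with low counts in every member. The exons of RPL17, RPS10 and RPL36A overlapped over 96.9%, 84.01% and 43.8% of their length with other annotated genes. For RPS25 and RPL7A, 50.5% and 48.3% of 84-base windows of the spliced transcript occurred elsewhere on the primary chromosomes, against all windows of RPL21, which had 5395 to 6267 reads per library. Among members with more reads, exons of RPL26 and RPS15A overlapped another gene on the same strand over 65.3% and 41.5% of their length, and those of RPL10 and RPL30 a gene on the other strand over 53.7% and 51.4%. The strand setting of the counting is not given in the sources used here. The part of shared sequence in these counts was not tested, and levels and fold changes of the members with few reads are uncertain.

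After DDX41 knockdown, single ribosomal protein genes moved in both directions by small amounts. Of the 78 members tested, 19 were called higher (24.4%, against 30.3% of all 16143 genes tested) and 18 lower (23.1%, against 32.1%). In this fit both shares were below those of all genes. The other 41 were not called, with log2 fold changes from -0.11 for RPL18 to 0.20 for RPS10. Since the members were a chosen list, no test of the list was made. The median log2 fold change was 0.025 for members and -0.0014 for all genes tested. The middle 50% of members lay between -0.078 and 0.10, and the middle 50% of all genes between -0.32 and 0.25. An absolute log2 fold change over 0.25 was found in 11 members, against 54.8% of all genes. No member passed an absolute log2 fold change of 0.5, which 27.6% of all genes did. The libraries of the groups did not overlap in 12 members that were higher (26.7% of all genes) and 17 that were lower (29.3% of all genes). Without control replicate 2, 25 members were called higher and 17 lower, against 4823 and 5121 of all genes. With the GC trend removed, 27 members were called higher and 19 lower, against 5188 and 5157 of all genes. In both of these fits the members' share called higher was above that of all genes, and their share called lower stayed below.

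**Figure D1:**
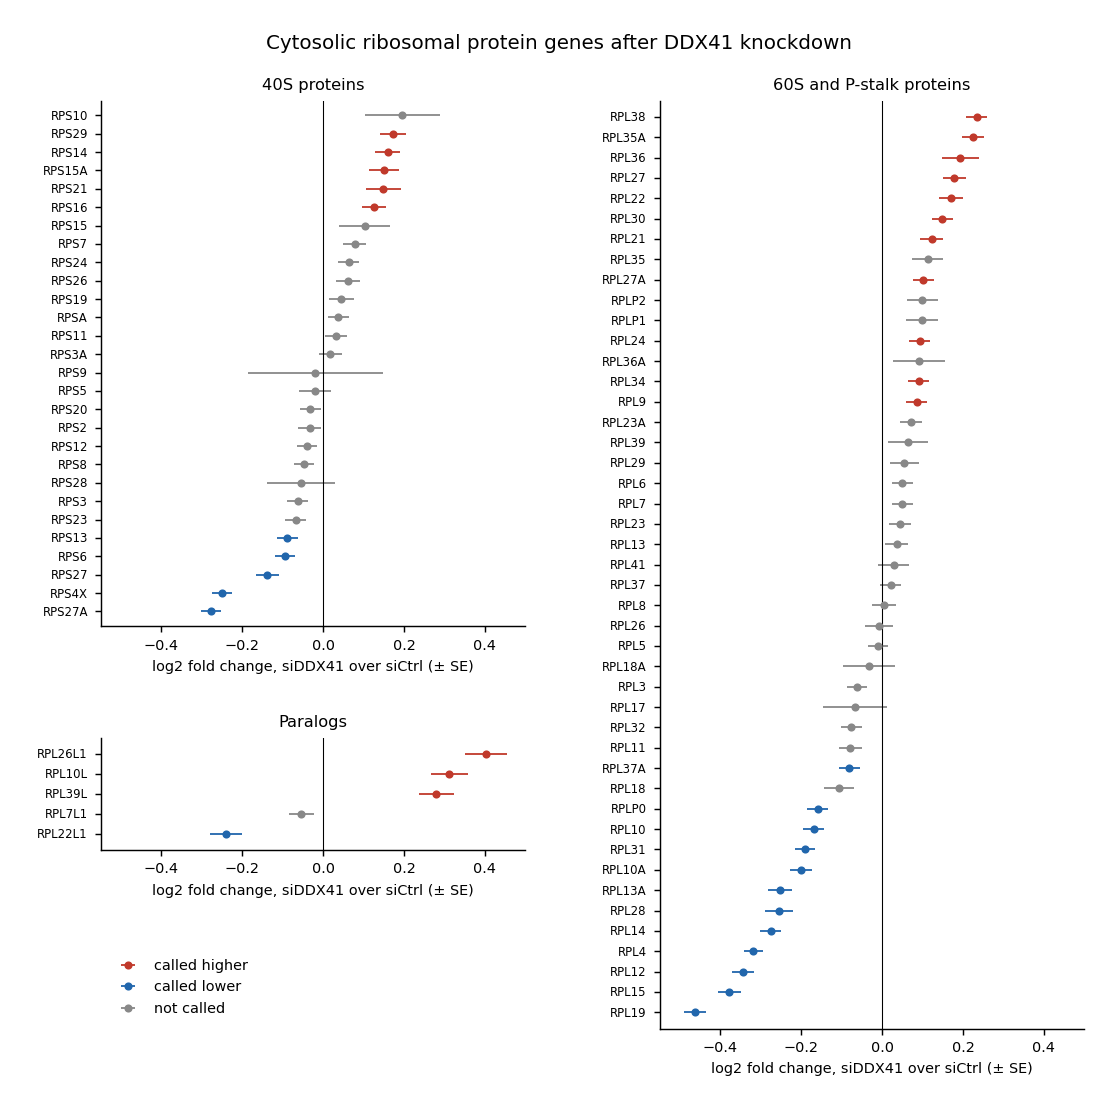
Each point is the log2 fold change of 1 gene (x axis, DDX41 knockdown over control knockdown, bars are SE from edgeR), with 40S proteins, 60S and P-stalk proteins, and paralogs in separate panels and the called genes in color. The 78 values run from -0.46 for RPL19 to 0.40 for RPL26L1 and most lie close to 0.

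The members together took a slightly smaller share of all counts after DDX41 knockdown. They held 4.31, 4.52, 4.26, 4.34 and 4.37% of the counts in control replicates 1 to 5 and 4.15, 4.08, 4.09, 4.21 and 4.26% in DDX41 knockdown replicates 1 to 5. The highest DDX41 knockdown library lay just above the lowest control library, so the groups overlapped by 1 library on each side. The mean share was 4.36 ± 0.0983% in control knockdown and 4.16 ± 0.0763% in DDX41 knockdown (SD, n = 5). Counts of mitochondrially encoded genes, part of the total, rose from 1.45% to 2.08%, and without them the members' shares were 4.42% and 4.25%. The summed share went down while the median fold change was above 0, and of the 24 members with the highest CPM 10 were called lower (41.7%, against 32.1% of all genes tested).

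**Figure D2:**
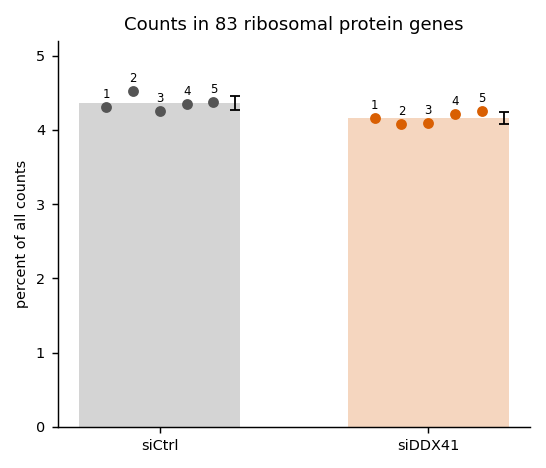
Each point is 1 library (numbered by replicate) and gives the percent of its counts in the 83 members, with bars for the group mean and error bars for the SD (n = 5). Control knockdown libraries lie between 4.26% and 4.52% and DDX41 knockdown libraries between 4.08% and 4.26%.

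Log2 fold changes of the 60S proteins ran from -0.46 to 0.23. Of the 42 tested, 11 were called higher and 11 lower (26.2% each way, against 30.3% and 32.1% of all genes tested), with a median log2 fold change of 0.025. RPL19 (ENSG00000108298.9, chr17:39200283-39204840, plus strand, 6 exons), a 60S protein whose long helix reaches across to the 40S subunit, had 1004, 1048, 961, 995 and 1021 CPM in control replicates 1 to 5 and 709, 717, 716, 745 and 763 CPM in DDX41 knockdown replicates 1 to 5. Every DDX41 knockdown library was below every control library, and RPL19 fell by 0.46 ± 0.027 on the log2 scale (SE, edgeR adjusted p = 3.74e-15), or by 27.4%. RPL15 (ENSG00000174748.18, chr3:23916591-23924374, plus strand, 3 exons), a 60S protein and a Diamond-Blackfan anemia gene, had 527, 560.3, 507, 529 and 538 CPM in control replicates 1 to 5 and 408, 403, 395, 417 and 425 CPM in DDX41 knockdown replicates 1 to 5. Its groups did not overlap either, and its log2 fold change was -0.38 ± 0.028 (edgeR adjusted p = 6.97e-13). RPL12 (ENSG00000197958.12, chr9:127447674-127451406, minus strand, 7 exons), which sits at the base of the P-stalk where elongation factors bind, had 821, 818, 799, 835 and 818 CPM in control replicates 1 to 5 and 611, 643, 625, 674 and 669.6 CPM in DDX41 knockdown replicates 1 to 5. All DDX41 knockdown libraries were lower, with a log2 fold change of -0.34 ± 0.028 (edgeR adjusted p = 3.5e-12).

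RPL4 lines the tunnel through which the nascent peptide leaves the ribosome. RPL4 (ENSG00000174444.14, chr15:66498015-66524532, minus strand, 10 exons), the member with the most counts, had 2177, 2162, 2168, 2178 and 2157 CPM in control replicates 1 to 5 and 1715, 1709.8, 1703, 1765 and 1798 CPM in DDX41 knockdown replicates 1 to 5. The control libraries lay very close together, and the fall was 0.32 ± 0.024 on the log2 scale (edgeR adjusted p = 5.61e-13). RPL14 (ENSG00000188846.13, chr3:40457292-40468587, plus strand, 6 exons), a 60S protein of eukaryotes, had 533, 519, 519, 536 and 521 CPM in control replicates 1 to 5 and 426, 425, 425, 452 and 443 CPM in DDX41 knockdown replicates 1 to 5. The groups did not overlap, and the log2 fold change was -0.28 ± 0.026 (edgeR adjusted p = 1.08e-10). The other 60S genes called lower were RPL28 (-0.26, and between -0.28 and -0.16 over the 20 alternative fits), RPL13A (-0.25), RPL10A of the L1 stalk (-0.20), RPL31 at the rim of the exit tunnel (-0.19), RPL10, which joins the subunit late in its maturation (-0.17), and RPL37A (-0.082). RPL37A, the smallest of these changes, was no longer called under 11 of the 20 alternative fits.

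Rises among 60S genes were smaller than the largest falls. RPL38 (ENSG00000172809.12, chr17:74203582-74210655, plus strand, 5 exons), known from mice in which its loss alters the translation of Hox mRNAs, had 338, 342, 341, 343 and 334 CPM in control replicates 1 to 5 and 410.2, 378, 406, 394 and 407 CPM in DDX41 knockdown replicates 1 to 5. No control library reached a DDX41 knockdown library, and the log2 fold change was 0.23 ± 0.026 (edgeR adjusted p = 5.05e-09). RPL35A (ENSG00000182899.14, chr3:197950190-197956610, plus strand, 5 exons), a Diamond-Blackfan anemia gene, had 333, 350.2, 346, 353 and 345 CPM in control replicates 1 to 5 and 414, 391.6, 387, 414 and 413 CPM in DDX41 knockdown replicates 1 to 5. Its groups did not overlap, with a log2 fold change of 0.22 ± 0.027 (edgeR adjusted p = 1.81e-08). RPL36 (ENSG00000130255.12, chr19:5674947-5691875, plus strand, 5 exons), a small 60S protein, had 171, 201, 163, 168 and 189 CPM in control replicates 1 to 5 and 207, 200.3, 207, 204 and 201 CPM in DDX41 knockdown replicates 1 to 5. Control replicates 2 and 5 were the highest of their group and the groups overlapped, and RPL36 rose by 0.19 ± 0.046 on the log2 scale (edgeR adjusted p = 0.00133). RPL27 (0.18), another Diamond-Blackfan anemia gene, RPL22 (0.17), RPL30 (0.15), RPL21 (0.12), RPL27A (0.10), RPL24 (0.092), RPL34 (0.090) and RPL9 (0.086) completed the 60S genes called higher. RPL9, RPL24 and RPL34 lost the call under 8, 1 and 4 of the 20 alternative fits. Over these fits the log2 fold change of RPL34 lay between 0.044 and 0.11 and that of RPL9 between 0.055 and 0.10.

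**Figure D3:**
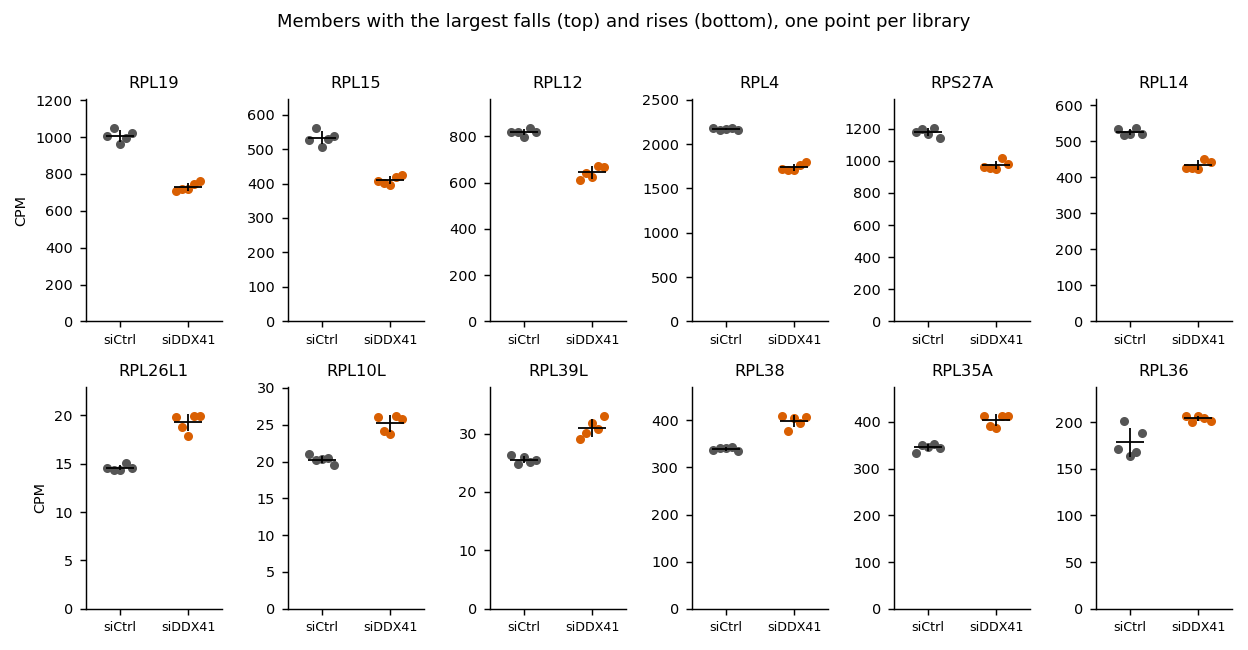
CPM (y axes, from 0) of the 6 members with the largest falls (top row) and the 6 with the largest rises (bottom row), with 1 point per library and lines for the mean and SD (n = 5). The groups are separate in all panels but RPL36, in which the control libraries spread from 163 to 201 CPM.

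Log2 fold changes of the 40S proteins ran from -0.28 to 0.20. Of the 28 tested, 5 were called higher and 5 lower (17.9% each way, against 30.3% and 32.1% of all genes tested), and their median log2 fold change was -0.0010. RPS27A (ENSG00000143947.12, chr2:55231903-55235853, plus strand, 6 exons), which encodes a ribosomal protein fused to ubiquitin, had 1179, 1197, 1169, 1203 and 1141 CPM in control replicates 1 to 5 and 964, 954, 952, 1015 and 977 CPM in DDX41 knockdown replicates 1 to 5. The groups did not overlap, and the log2 fold change of -0.28 ± 0.025 was the lowest of the 40S genes (edgeR adjusted p = 6.18e-11). RPS4X, the X-linked gene of a protein with a second copy on chromosome Y, went from 1180.3 ± 9.89 CPM to 993 ± 25.9 CPM (SD, n = 5), a log2 fold change of -0.25. RPS27 (-0.14), RPS6, the substrate of S6 kinase (-0.094), and RPS13 (-0.088) were also called lower, RPS13 not under 6 of the 20 alternative fits and RPS6 not under 1.

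The 40S genes called higher were RPS29 (0.17), a Diamond-Blackfan anemia gene, RPS14 (0.16), the gene whose loss is linked to the anemia of the 5q- syndrome, RPS15A (0.15), RPS21 (0.15) and RPS16 (0.13, and between 0.11 and 0.20 over the 20 alternative fits). RPS29 was the only one of these with no overlap between groups, at 329 ± 17.5 CPM in control knockdown and 371 ± 11.9 CPM in DDX41 knockdown (SD, n = 5). RPS21 lost its call under 9 of the 20 alternative fits. The counts of the next 3 lists stand against 30.3% and 32.1% of all genes tested called higher and lower. Of 12 proteins of the 40S head, 9 could be tested, 2 were called higher (RPS16 and RPS29) and the other 7 were not called, with a median of 0.045. This list holds members only, and RACK1, a head protein with another symbol, was called lower and is described with the genes outside the family. Of 9 proteins of the exit tunnel and its rim, 1 was called higher (RPL22) and 3 lower (RPL4, RPL19 and RPL31), with a median of -0.0082. Among 15 Diamond-Blackfan anemia genes, of which 14 were tested, 3 were called higher (RPL35A, RPL27 and RPS29) and 2 lower (RPL15 and RPS27), and RPS19, the gene first tied to the disease, had a log2 fold change of 0.045 ± 0.032 and was not called (edgeR adjusted p = 0.205). RPS19 was called higher in both fits with the GC trend removed, and its log2 fold change lay between 0.014 and 0.14 over the 20 alternative fits.

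The P-stalk recruits elongation factors and holds RPLP0 with copies of RPLP1 and RPLP2. RPLP0 had 1769, 1784, 1705, 1758 and 1758 CPM in the control libraries and 1546, 1542, 1522, 1603 and 1642 CPM in the DDX41 knockdown libraries, in replicate order. The groups did not overlap, and RPLP0 fell by 0.16 ± 0.025 on the log2 scale (edgeR adjusted p = 2.09e-06). It was called lower in all 20 alternative fits, and with the GC trend removed its log2 fold change was -0.088. RPLP1 had 1031, 1187, 994, 1052 and 1122 CPM in control knockdown and 1141, 1123, 1198, 1119 and 1182 CPM in DDX41 knockdown. RPLP2 had 249, 283, 233, 241 and 255 CPM and 273, 265, 269, 273 and 272 CPM, respectively. Control replicate 2 was the highest control library for both. Their log2 fold changes were 0.10 ± 0.040 and 0.10 ± 0.038, and neither was called (edgeR adjusted p = 0.0366 and 0.0234). Without control replicate 2 both were called, with log2 fold changes of 0.13 and 0.14. Both were also called with no filter on low counts, and RPLP2 with upper-quartile factors and in both fits with the GC trend removed, where its log2 fold change reached 0.20.

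RPL5 and RPL11, which bind 5S rRNA and MDM2, were not called. RPL5 had 901, 954, 909, 921 and 909 CPM in control knockdown and 898, 889.8, 909, 938 and 927 CPM in DDX41 knockdown, with a log2 fold change of -0.010 ± 0.025 (edgeR adjusted p = 0.725). RPL11 had 706, 655, 669, 698 and 655 CPM and 633, 617, 626, 669.8 and 657 CPM, respectively. Its groups overlapped, its log2 fold change was -0.079 ± 0.028, and it was not called (edgeR adjusted p = 0.0151), although scaling by library totals only, or leaving out control replicate 2 or DDX41 knockdown replicate 4, gave a call. Of 4 genes listed around MDM2, 3 were called higher. MDM2 rose from 185 ± 3.47 CPM to 247 ± 7.19 CPM (log2 fold change 0.42 ± 0.027, edgeR adjusted p = 3.33e-14), its partner MDM4 by 0.53 and CDKN1A, an inhibitor of cyclin-dependent kinases, by 0.49 on the log2 scale.

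The 6 paralogs of 60S proteins, several of them with tissue-restricted expression, were members too. Of the 5 tested, 3 were called higher and 1 lower, and their median absolute log2 fold change was 0.28. It was 0.092 over all members tested and 0.28 over all genes tested, of which 30.3% and 32.1% were called higher and lower, so that the paralogs were close to the median gene by size of change. RPL26L1, a close copy of RPL26, had 14.5, 14.4, 14.4, 15.04 and 14.6 CPM in control knockdown and 19.8, 18.8, 17.9, 19.998 and 19.9 CPM in DDX41 knockdown. It rose by 0.40 ± 0.051 on the log2 scale, the largest rise of all members tested (edgeR adjusted p = 4.87e-08). RPL26 had 123, 113, 126, 131 and 124 CPM and 117, 118, 123, 124 and 129.99 CPM, with overlapping groups and a log2 fold change of -0.0082 ± 0.035 (edgeR adjusted p = 0.845). Of the 84-base windows of RPL26L1, 30.03% occurred elsewhere in the genome. Reads of RPL26L1 went from 11.8 ± 0.531% to 15.7 ± 0.895% of those of RPL26 (SD, n = 5).

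RPL10L, an intronless copy best known from testis, had 20.97, 20.2, 20.3, 20.5 and 19.5 CPM in control knockdown and 26.1, 24.2, 23.7, 26.3 and 25.7 CPM in DDX41 knockdown. Its parent RPL10 had 843, 854, 820.4, 855 and 830.5 CPM and 743, 752, 712, 758 and 771 CPM. The pair moved in opposite directions with no overlap of groups in either gene, RPL10L by 0.31 ± 0.047 and RPL10 by -0.17 ± 0.026 on the log2 scale (edgeR adjusted p = 8.34e-07 and 9.87e-07). No 84-base window of RPL10L occurred elsewhere in the genome. RPL39L, also known from testis and from tumors, had 26.3, 24.8, 25.9, 25.04 and 25.5 CPM and 29.1, 30.1, 31.8, 30.7 and 33.1 CPM. It rose by 0.28 ± 0.044 on the log2 scale (edgeR adjusted p = 1.67e-06). RPL39 had 17.3, 18.8, 18.6, 18.4 and 17.7 CPM and 19.9, 18.003, 19.1, 19.3 and 18.7 CPM, with overlapping groups and no call (log2 fold change 0.064 ± 0.049, edgeR adjusted p = 0.247). RPL39 counts are uncertain, since 93.2% of its windows occurred elsewhere, so that the ratio of RPL39L to RPL39 reads, 141 ± 7.80% in control knockdown, does not give their relative levels.

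The RPL22 pair moved the other way round. RPL22, an RNA-binding 60S protein, had 85.3, 82.6, 82.7, 81.6 and 81.6 CPM in control knockdown and 92.9, 93.4, 93.4, 94.7 and 91.1 CPM in DDX41 knockdown. RPL22L1 had 57.5, 53.5, 54.5, 60.3 and 55.1 CPM and 47.4, 47.8, 46.8, 50.3 and 45.3 CPM. Neither gene's groups overlapped, with log2 fold changes of 0.17 ± 0.029 for RPL22 and -0.24 ± 0.039 for RPL22L1 (edgeR adjusted p = 7.13e-06 and 2.55e-06). Reads of RPL22L1 fell from 67.9 ± 3.54% to 51.1 ± 1.33% of those of RPL22. RPL7L1, which is named as a copy of RPL7, had 133, 134, 139, 134 and 128 CPM and 128, 124, 126, 133 and 132 CPM, and RPL7 had 564, 569, 566, 586 and 562 CPM and 595, 559, 595, 604 and 594 CPM. Neither was called (log2 fold changes -0.054 ± 0.030 and 0.050 ± 0.026, edgeR adjusted p = 0.111 and 0.0866). RPL3, which shapes the peptidyl transferase center, had 1506, 1478, 1426, 1438 and 1495 CPM and 1377, 1416, 1377, 1423 and 1442 CPM. It was not called either (log2 fold change -0.062 ± 0.025, edgeR adjusted p = 0.0267) except with library totals only, and its muscle copy RPL3L was not tested.

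**Figure D4:**
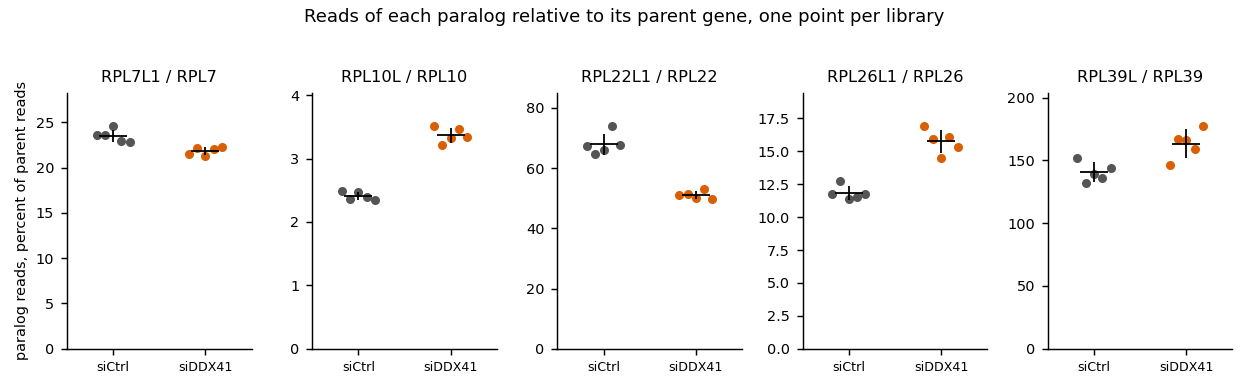
Reads of each paralog as a percent of the reads of its parent gene (y axes, from 0) in each library, with lines for the mean and SD (n = 5). For RPL10L the control libraries lie at 2.34% to 2.49% and the DDX41 knockdown libraries at 3.21% to 3.51%, and for RPL22L1 at 64.8% to 73.9% and 49.8% to 53.2%.

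Ribosomal protein genes have more processed pseudogenes than almost any other family, and reads of a member can be placed in one of them. Of 1598 pseudogenes named after members, 671 had reads, and together they took 0.0384 ± 0.00181% of the counts in control knockdown and 0.0377 ± 0.000908% in DDX41 knockdown (SD, n = 5). The copies of RPS2 held 40805 reads over all libraries, against 302469 in RPS2 itself, and those of RPL10 held 11080 against 188260. The copies of RPL7A held 1107 and those of RPS18 679, although the genes themselves had 2 reads and none. With pseudogene counts added to their parent genes, 19 members were called higher and 18 lower, the same numbers as without them.

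Calls were also counted by the level of the gene, against 30.3% and 32.1% of all genes tested called higher and lower. The 72 tested members with at least 5 CPM and no paralogs were split into 3 groups of 24 by their mean CPM over all 10 libraries. Of the 24 lowest (5.53 to 363 CPM), 7 were called higher (29.2%) and 1 lower (4.17%), with a median log2 fold change of 0.084. The middle group had 9 calls higher (37.5%) and 6 lower (25%) and a median of 0.040. Of the 24 highest (656 to 1953 CPM), none was called higher and 10 were called lower (41.7%), with a median of -0.062. These calls are by edgeR. At an unadjusted p under 0.05, edgeR found 2 of these 24 higher, and DESeq2 called 0 higher. No difference between the level groups was tested. Across the 73 members without paralogs, Spearman's rho between log2 fold change and mean CPM was -0.44, against 0.079 across all genes tested. Genes in these correlations share libraries and scaling and are not independent.

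**Figure D5:**
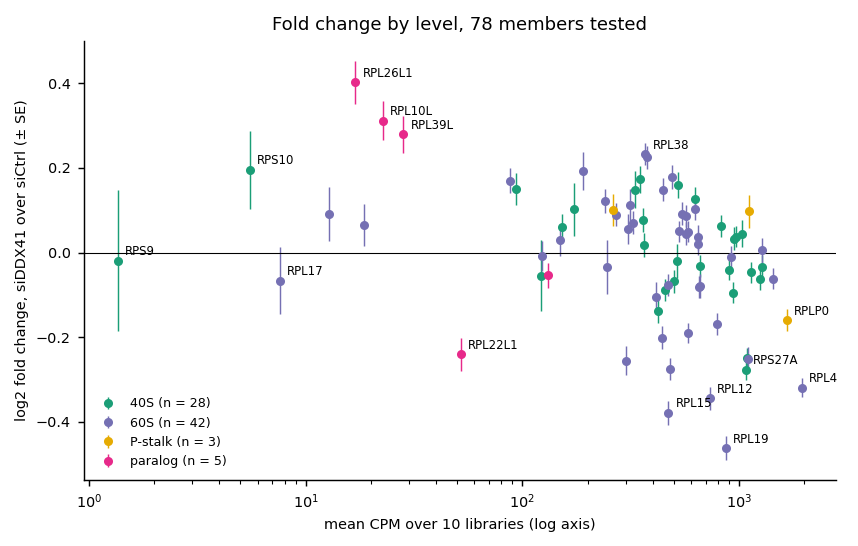
Log2 fold change (y axis, bars are SE) against mean CPM over the 10 libraries (x axis, log scale) for the 78 members tested, colored by subunit or as paralogs. No member above 656 CPM was called higher, and the 3 paralogs called higher lie between 10 and 100 CPM.

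Other features that the choice of members did not use were compared in the same way. Coding length gave a rho of -0.46 with log2 fold change over the 73 members without paralogs, the number of exons -0.28 and GC content of the transcript -0.11. The length of the pyrimidine run at the annotated start gave 0.30 over the 59 of these members with an entry. Across all genes tested, rho was -0.0045 for the number of exons, -0.13 for GC content and -0.045 for transcript length, a measure unlike coding length. These were values of the canonical transcript. Exon number and GC content of members were those of the shortest transcript with the same coding sequence. The next counts stand against 30.3% and 32.1% of all genes tested called higher and lower. Of the 40 tested members with the TOP motif at the annotated start, 11 were called higher and 11 lower (27.5% each way, median log2 fold change 0.041). The 23 without it had 5 and 7 (median -0.055), and of the 15 without an entry 3 were called higher and 12 were not called. There were 60 small nucleolar RNAs within 28 members, and the 27 hosts tested had 3 calls higher and 5 lower (median -0.032), and the 51 others had 16 and 13 (median 0.050). The 14 tested members with at least 50% of their windows elsewhere in the genome had 2 and 1 (median 0.044). These are counts and medians of a chosen list, and no difference between such groups was tested.

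Levels per kilobase of coding sequence were uneven in control knockdown. RPLP1, of which a ribosome carries more than 1 copy, had the highest at 3149.6 CPM per coding kilobase, followed by RPS27A at 2517 and RPL37A at 2445. The RPL37A libraries had 659, 694, 664, 685 and 673 CPM in control knockdown and 641, 614, 626, 646 and 662 CPM in DDX41 knockdown, and the groups overlapped. On the same scale RPL22 had 215 and RPL26 284 CPM per coding kilobase. Reads of untranslated regions are included in the counts and raise this value for short proteins.

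Several members serve as reference genes in quantitative PCR, and 3 of the 4 tested here were called lower, against 32.1% of all genes tested. RPL13A had 1165, 1274, 1139.7, 1167 and 1222 CPM in control knockdown and 980.3, 999, 985, 995 and 1050.2 CPM in DDX41 knockdown. Its groups did not overlap and it fell by 0.25 ± 0.029 on the log2 scale, or by 16.1% (edgeR adjusted p = 6.02e-09). RPL19, given above, fell by 27.4% and RPLP0 fell by 10.5%, a change that was smaller with the GC trend removed, as given with the P-stalk. Over the 20 alternative fits, the log2 fold change lay between -0.27 and -0.17 for RPL13A and between -0.48 and -0.38 for RPL19. Both were called lower in all 20. RPL32 had 486, 491, 469.7, 485 and 488 CPM and 450.5, 443, 454, 476 and 470.3 CPM, and was just short of a call (log2 fold change -0.076 ± 0.026, edgeR adjusted p = 0.0105). It was called lower with library totals only and without control replicate 3 or DDX41 knockdown replicate 4. RPS18 had no read.

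Ribosomal proteins with other symbols were listed separately. RACK1, a 40S protein at the head, fell from 949 ± 20.1 CPM to 527 ± 21.1 CPM (log2 fold change -0.85 ± 0.028, edgeR adjusted p = 2.84e-21), and FAU, a fusion precursor of a 40S protein, rose from 193 ± 17.7 CPM to 236 ± 4.203 CPM (log2 fold change 0.29 ± 0.050, edgeR adjusted p = 0.000124; SD, n = 5). RPL36AL fell by 0.090 on the log2 scale, and RPS27L had 0.085 and was not called. Of 21 other genes known for TOP mRNAs, in which RACK1 and FAU are counted again, 19 were tested, 4 were called higher (21.1%, against 30.3% of all genes tested) and 9 lower (47.4%, against 32.1%), with a median of -0.0066. The falls included the elongation factors EEF2 (-0.77) and EEF1A1 (-0.32) and HNRNPA1 (-0.55). Of the 14 such genes with a RefSeq entry, 12 had the motif at the annotated start.

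Of 13 genes that control the translation of TOP mRNAs, 6 were called higher (46.2%, against 30.3% of all genes tested) and 4 lower (30.8%, against 32.1%). LARP1, which binds the motif, had a log2 fold change of -0.017 ± 0.027 and was not called (edgeR adjusted p = 0.598), MTOR fell by 0.18 and EIF4EBP2, a repressor of cap-dependent initiation, by 0.71, while the S6 kinase gene RPS6KB2 rose by 0.46 on the log2 scale. Of 15 chaperones and quality control factors of ribosomal proteins and ribosomes, 9 were called higher (60%, against 30.3% of all genes tested) and 0 lower (against 32.1%), with a median of 0.15. LTV1, an assembly factor of the 40S subunit, rose from 27.1 ± 1.52 CPM to 36.1 ± 1.58 CPM (log2 fold change 0.41 ± 0.045, edgeR adjusted p = 2.36e-09), BCCIP by 0.35, HBS1L, a ribosome rescue factor, by 0.26, and BTF3 by 0.22. At an unadjusted p under 0.05, edgeR found 1 of the 15 lower, and DESeq2 called 0 lower. Mitochondrial ribosomal protein genes, of which 75 of 78 were tested, had a median log2 fold change of 0.11 and a middle 50% from -0.016 to 0.25, against -0.078 to 0.10 for the cytosolic members. The difference between the lists was not tested.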

How the data were processed

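RNA-sequencing libraries of U2OS cells after control or DDX41 knockdown (5 each) were used. The deposited values are read counts per gene of 1 library each, without normalization. Per the submitters' processing notes, the authors used STAR 2.7, hg38 and featureCounts 1.6, and per the paper's methods Gencode release 25. How multi-mapping reads were treated, and the strand setting, are not given in the sources used here.

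Identifiers were joined without their version to GENCODE release 44 on GRCh38, where 98.7% of the 16143 genes tested had a match. The analysis ran in R 4.3.3. Low genes were removed with filterByExpr, libraries were scaled by TMM, and edgeR 4.0.16 fitted the counts (glmQLFit, robust) and tested the groups with glmQLFTest. P-values were adjusted over all genes tested (Benjamini-Hochberg), with a threshold of 0.01, and CPM were computed from the TMM-scaled library sizes. The SE of a log2 fold change comes from its F statistic. DESeq2 1.42.0, other scaling factors, no filter, removal of a GC trend, a replicate block, pseudogene counts added to the parent gene and each library left out were the alternative fits. On simulated counts, 100 of 100 genes changed 1.5-fold and 57 of 100 changed 1.15-fold were recovered among 15870 genes with 0 false calls. The changed genes were a far smaller part of all genes than those called in the data. These shares therefore do not carry over to the members.

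Library values are given for the 6 members called with the largest change in each direction among those with at least 5 CPM, the 3 with the highest CPM per coding kilobase, the paralog pairs, RPL5, RPL11, the P-stalk genes and the reference genes for PCR. RPS4X and the other members named with a fold change only are those called or in the lists. Coding length is that of the canonical transcript. Shared windows, exon overlaps, exon numbers and GC content of members are those of the shortest transcript with this coding sequence. Exon numbers and GC content over all genes are those of the canonical transcript. Members and gene lists were chosen with earlier results of these data known. Some genes of the lists are not reported here. The depth of the libraries limits the precision for members with few reads.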

Additional observations from a re-analysis of the deposited data

Results flagged for a closer look

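In 5 of 60 groups of 5 libraries examined for the values printed here, 1 library lay far from the other 4, by a test that chance alone meets in about 1 in 20 groups. Over all members tested, it was met in 7 of 156 groups. RPL26L1 had 15.04 CPM in control replicate 4, against 14.4 to 14.6 CPM in the other control libraries. RPL7 had 586 CPM in control replicate 4, against 562 to 569 CPM, and 559 CPM in DDX41 knockdown replicate 2, against 594 to 604 CPM. RPL13A had 1050.2 CPM in DDX41 knockdown replicate 5, against 980.3 to 999 CPM. RPL32 had 469.7 CPM in control replicate 3, against 485 to 491 CPM. Leaving out the named library kept the call of RPL26L1 and of RPL13A, gave no call for RPL7, and gave a call for RPL32 (log2 fold change -0.088). No pattern of libraries was tested in these values.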

How the results depend on the processing

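The count of members called higher lay between 16 and 25 when 1 library was left out and that of members called lower between 15 and 20, with medians between 0.013 and 0.040. Of the 19 members called higher and the 18 called lower, 15 and 15 were called in the same direction under all 20 alternative fits, and none changed sign. With removal of the GC trend, 27 were higher and 19 lower, against 5188 and 5157 of all genes. The members' share called higher was then above that of all genes. Their median was 0.049, against 0.025 without the removal. With library totals only, 18 were higher and 23 lower (median 0.014), with upper-quartile factors 24 and 16, and with DESeq2 20 and 17. With an added threshold of 0.25 on the absolute log2 fold change, 3 members were higher and 8 lower. The difference in the share of counts lay between -0.23 and -0.16 percentage points when 1 library was left out. Signs of uncalled members near 0 changed. RPL3 had 0.022 and RPL7 -0.0051 with the GC trend removed (0.022 and -0.0055 with the block too). RPL26 had 0.0084 and RPL5 0.0063 with upper-quartile factors, and RPL26 had 0.0015 with DESeq2. With single libraries left out RPL26 lay between -0.039 and 0.012 and RPL5 between -0.020 and 0.0030. The causes of these differences between settings were not tested.

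Deviations of libraries with the same replicate number had correlations of -0.052 to 0.045, so no strong deviation was shared by number. These values cannot show whether libraries with the same number were prepared together. With the replicate block, 18 members were called higher and 17 lower (median 0.026). With the block and the GC trend removed these were 27 and 18, against 5054 and 5064 of all genes. With 5 libraries per group, small fold changes are often missed, as in the simulation, and members with under 1000 reads per library (13 of 83) are the least certain.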
